A study of Mus musculus with 6 samples.

Results

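The Hox genes were examined in sciatic nerves of 14-day-old mice that carried P0-driven Cre recombinase and a mutated Dicer gene, set against nerves of control littermates. A probe was taken as a member when its annotated gene symbol read Hoxa, Hoxb, Hoxc or Hoxd followed by a number, and 57 of the 45281 probes on the Mouse WG-6 version 2 bead array met this rule, reading 38 of the 19057 genes named there. The design held 3 arrays of mutant nerves and 3 arrays of control nerves, with total RNA of both sexes named for every sample. The mutant genotype is given in the labels as P0 Cre Dicer F or N, and what F or N stands for, and hence which Dicer allele each array holds, is not explained there. The genotype of the controls is given only as littermates, so whether they carry the transgene or a Dicer allele is not known. The P0 promoter drives Cre in the lineage of Schwann cells, the glia of peripheral nerve. The labels do not say whether nerves of several animals were pooled on an array, so the p-values speak only for the variation among these 6 samples, part of which may be technical.

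Hox genes encode homeodomain transcription factors that give cells their address along the head-to-tail axis. In mice they lie in 4 clusters, A to D, and within each cluster a low paralog number goes with expression that begins far forward and a high one with expression restricted to the hind end and the distal limb. Schwann cells, which come from the neural crest, and the fibroblasts and perineurial cells around them, can keep a Hox code of the level at which they arose, and the sciatic nerve arises at lumbar level. Hox proteins bind DNA together with cofactors of the TALE homeodomain class, namely Pbx, Meis and Pknox proteins, and silent Hox genes are held down by the Polycomb complexes. The clusters also encode the microRNAs of the miR-196 and miR-10 families, whose mature forms depend on Dicer and several of whose described targets are Hox genes. The array does not measure mature microRNAs.

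The mature cluster microRNAs are shown because their maturation is the step that Dicer carries out. The sequences are from RefSeq (build GRCm38.p6), written 5′ to 3′, with the seed, bases 2 to 8, in capitals.
mmu-miR-196a-5p: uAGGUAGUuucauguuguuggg
mmu-miR-196b-5p: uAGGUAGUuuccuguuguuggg
mmu-miR-10a-5p: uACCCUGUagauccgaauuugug
mmu-miR-10b-5p: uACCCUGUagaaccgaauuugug
Both miR-196 forms share 1 seed and both miR-10 forms share another. The genes of miR-196a lie in the B cluster on chromosome 11 and the C cluster on chromosome 15, and that of miR-196b in the A cluster on chromosome 6. miR-10a lies in the B cluster and miR-10b in the D cluster on chromosome 2.

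Signals had been normalized and put on a scale like log2, from 7.96 to 15.91, and every difference is mutant minus control on that scale. Because probes differ in brightness for reasons of their own sequence, a level is compared between arrays and not between genes. Tests with limma covered the 18420 brightest probes, ranked by their 6-array mean, and an adjusted p under 0.05 made a call. Of the 57 Hox probes, 20 were among them, reading 15 of the 38 genes, and 37 were dimmer. The lowest mean that passed was 8.34. Just inside lay Hoxc4 with a mean of 8.35 over the 6 arrays, and just outside lay a Hoxa2 probe at 8.31. Hoxc4 was the tested Hox gene with 1 group mean under that limit, at 8.31 in mutants and 8.39 in controls.

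The gene named in the genotype, Dicer1, was read by 3 probes, of which 2 were tested. The brighter had 9.28, 9.10 and 9.13 in mutants and 9.29, 9.17 and 9.13 in controls, with overlapping groups and a difference of -0.02 (limma adjusted p = 0.832). The dimmer had 8.38, 8.45 and 8.34 in mutants, against 8.650, 8.626 and 8.497 in controls, and fell by 0.20 without overlap (SE 0.063, limma adjusted p = 0.0458). The probes disagree, and since either may lie outside the deleted exons they do not check the labels.

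The tested genes came from all clusters: Hoxa5, Hoxa7, Hoxa9 and Hoxa13, Hoxb2, Hoxb4, Hoxb5 and Hoxb7, Hoxc4, Hoxc6, Hoxc9 and Hoxc10, and Hoxd4, Hoxd8 and Hoxd9. By paralog number, 3 of 4 genes numbered 4 were tested, both numbered 7, and 3 of 4 numbered 9. No gene numbered 1, 3, 11 or 12 was tested, and of the 4 genes numbered 13, which act at the hind end and in the distal limb, Hoxa13 was. The tested Hox genes thus ran mostly over the middle paralogs, and Hoxb2, a hindbrain gene, and Hoxa13 were the outer ones. The tested Hoxa13 probes lay close to the limit, with means of 8.45 and 8.38, and a further one was dimmer, at 8.20. This set follows the brightness of probes, so it need not be the Hox code of the nerve. In the 37 dimmer probes every value lay between 8.01 and 8.41, close to the median of 8.24 of all values. Whether those genes were silent or read by weak probes cannot be told apart.

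**Figure D1:**
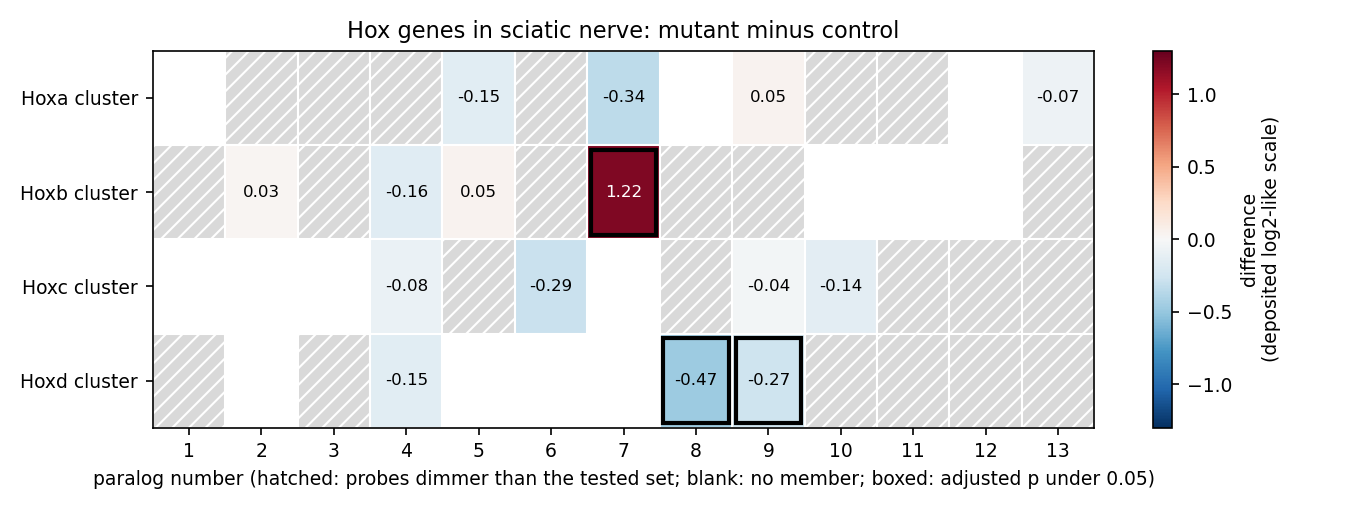
Difference between mutant and control nerves (mutant minus control, log2-like scale, colour and printed value) for each Hox gene by cluster (rows) and paralog number (columns). Boxed cells passed an adjusted p under 0.05: Hoxb7 was higher at 1.22, and Hoxd8 at -0.47 and Hoxd9 at -0.27 were lower; hatched genes had only probes dimmer than the tested set, and blank cells hold no member.

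In the mutant nerves 1 Hox gene, Hoxb7, rose and 2 neighbours in the D cluster, Hoxd8 and Hoxd9, fell. The other 12 tested genes did not pass the test. Thus 3 of 15 tested Hox genes (20%) were called, where 39.6% of all 10273 tested genes were, each counted by its brightest probe. Higher calls made up 22.0% of all tested genes against 1 of 15 Hox genes, and lower calls 17.6% against 2 of 15. Counted by probe, 5 of 20 Hox probes (25%) were called, where 35.8% of all tested probes were. The median difference of the tested Hox genes was -0.14 and that of all tested genes 0.01, and 11 of the 15 lay below 0. The median size of the difference, whatever its sign, was 0.15 in the Hox genes and 0.20 in all tested genes.

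Hoxb7, a paralog of the trunk region, stood at 10.51, 10.91 and 10.75 in the mutant arrays, against 9.53, 9.52 and 9.46 in the control arrays. Every mutant array lay about 1 unit or more above every control array, and the 3 controls spanned less than 0.1. The means were 10.72 ± 0.198 in mutants and 9.50 ± 0.043 in controls (SD, n = 3 each), a difference of 1.22 (SE 0.101, limma adjusted p = 2.14e-04). A further Hoxb7 probe of the same transcript gave 9.56, 9.77 and 9.68 in mutants, against 8.78, 8.74 and 8.74 in controls. It rose by 0.92 (SE 0.065, limma adjusted p = 1.16e-04), so both probes of the gene moved the same way without overlap. Both calls held in each of 12 alternative fits to single probes, where the difference of the brighter probe ran from 1.13 to 1.36, and the mean of both probes gave 1.07, also called. In bulk nerve, more cells that express a gene and more RNA per cell cannot be told apart, and the reverse holds for a fall.

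The genes next to it in the cluster gave no call. Hoxb8, on its high-numbered side, stood between 8.11 and 8.17 in mutants and between 8.08 and 8.22 in controls, among the dim probes. Hoxb6, on its low-numbered side, and Hoxb9 were dim as well, with differences of 0.04 and 0.02 in the fit over all probes. Hoxb5, which acts in enteric neural crest, had 8.55, 8.66 and 8.69 in mutants, against 8.65, 8.61 and 8.49 in controls. Its groups overlapped, and its difference was 0.05 with a 95% interval of -0.11 to 0.21. Hoxa7, the paralog of Hoxb7 in the A cluster, pointed the other way, with 9.12, 9.28 and 9.56 in mutants and 9.54, 9.83 and 9.59 in controls. The highest mutant array lay just above the lowest control, and the difference of -0.34 (SE 0.128) was not called (limma adjusted p = 0.0855). Its 95% interval, -0.64 to -0.03, lay below 0 before adjustment. The Hoxa7 call appeared without mutant replicate 3, at -0.45 (adjusted p = 0.0237), and with array weights (adjusted p = 0.0148). The adjusted p of its other alternatives ran up to 0.239.

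**Figure D2:**
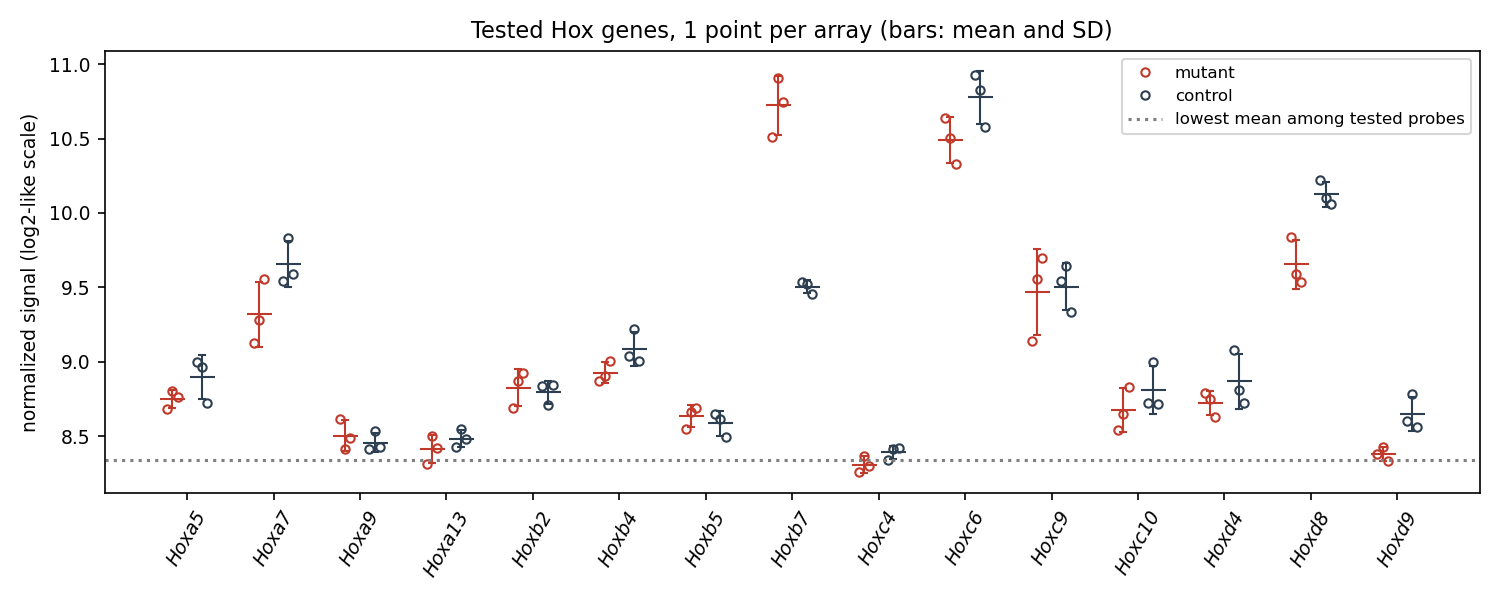
Normalized signal (log2-like scale) of the 15 tested Hox genes, each by its brightest probe, with 1 point per array, mutant arrays left of control arrays, and bars for mean and SD (n = 3). Mutant and control points do not overlap for Hoxb7, Hoxd8, Hoxd9 and, by a small margin, Hoxb4; the dotted line is the lowest mean among tested probes, 8.34.

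Hoxd8 stood at 9.84, 9.59 and 9.54 in the mutant arrays, against 10.22, 10.10 and 10.06 in the control arrays. The groups did not overlap, and mutant replicate 1 lay nearest to the controls. The means were 9.66 ± 0.164 in mutants and 10.13 ± 0.084 in controls (SD, n = 3 each), and the gene fell by 0.47 (SE 0.094, limma adjusted p = 0.00873). The call held in each of 13 alternatives, with a largest adjusted p of 0.0395 without control replicate 1.

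Hoxd9, which with its paralogs helps to set lumbar identity in motor neurons of mice, was read by a pair of probes near the dim end. The one with the higher mean had 8.38, 8.43 and 8.33 in mutants, against 8.60, 8.78 and 8.56 in controls. It fell by 0.27 (SE 0.072, limma adjusted p = 0.0266). The other had 8.43, 8.38 and 8.33 in mutants, against 8.66, 8.60 and 8.59 in controls, and fell by 0.24 (SE 0.052, limma adjusted p = 0.0130). On both probes the groups did not overlap, with every mutant value near the lower limit of the tested set. Leaving out control replicate 1 (adjusted p = 0.0624), control replicate 2 (0.0649), mutant replicate 2 (0.0539) or mutant replicate 3 (0.0699) ended the call of the first probe. Leaving out control replicate 1 ended that of the second (adjusted p = 0.0578). The sign stayed negative on both probes in all of their 11 alternatives. With groups that do not overlap it could not turn when 1 array was left out, so this adds no support.

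The genes on either side of this pair were weaker or not called. Hoxd10, the next gene toward the high numbers and a lumbar gene of hindlimb motor neurons in mice, was too dim to be in the tested set. It had 8.24, 8.23 and 8.12 in mutants, against 8.39, 8.39 and 8.31 in controls. These groups did not overlap either, but in the fit over all probes the difference of -0.16 (SE 0.042) missed the threshold (limma adjusted p = 0.0585). Hoxd4, the next tested gene of the cluster toward the low numbers, had 8.79, 8.75 and 8.63 in mutants and 9.08, 8.81 and 8.72 in controls. Its difference was -0.15 (95% interval -0.39 to 0.10), with overlapping groups. All 3 tested D genes thus lay below 0, but so did all 4 tested genes of the C cluster and 3 of 4 of the A cluster. A shared sign was therefore not particular to D. The 4 probes of Hoxd11 and Hoxd12 differed by no more than 0.03 in either direction.

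The start regions of both fallen genes are shown because Hoxd8 and Hoxd9 are neighbours that moved together. They are RefSeq windows of build GRCm38.p6 around the annotated start, plus strand, at chr2:74704365-74704664 for Hoxd8 and chr2:74697513-74697812 for Hoxd9. Capitals mark CG dinucleotides, since Polycomb-bound promoters in mammals are typically rich in them.
Hoxd8: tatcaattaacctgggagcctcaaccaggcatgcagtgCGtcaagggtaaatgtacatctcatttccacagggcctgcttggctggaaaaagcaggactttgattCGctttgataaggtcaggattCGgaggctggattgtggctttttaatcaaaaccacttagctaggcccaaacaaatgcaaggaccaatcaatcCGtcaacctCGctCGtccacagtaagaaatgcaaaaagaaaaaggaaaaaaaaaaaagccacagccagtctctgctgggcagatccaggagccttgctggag
Hoxd9: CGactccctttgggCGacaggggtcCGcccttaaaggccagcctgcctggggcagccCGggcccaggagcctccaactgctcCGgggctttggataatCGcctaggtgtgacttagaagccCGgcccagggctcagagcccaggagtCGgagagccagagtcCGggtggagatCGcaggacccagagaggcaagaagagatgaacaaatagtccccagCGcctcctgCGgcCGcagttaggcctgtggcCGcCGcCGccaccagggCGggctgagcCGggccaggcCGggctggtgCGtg
The Hoxd8 window held 6 CG dinucleotides and 46.7% G and C, and the Hoxd9 window 20 and 68.3%. Over 24 promoter windows of 22 Hox genes in the table the median was 14.5 CG dinucleotides, against 7 over all 32851 windows, of which 94.6% held at least 1. The windows of the 2 genes that fell thus differ from each other in base composition, and the table holds no window for Hoxb7.

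Hoxc6, known for forelimb-level motor neurons, was not called either, at an adjusted p close to that of Hoxa7. It had 10.64, 10.50 and 10.33 in mutants, against 10.93, 10.83 and 10.58 in controls. The highest mutant array passed the lowest control, and the difference was -0.29 (SE 0.115, limma adjusted p = 0.0972). With the replicate number as a block it was called (adjusted p = 0.0172). That fit called 38.2% of all tested genes and 4 of the 15 Hox genes. Hoxc6 was also called with array weights (adjusted p = 0.00997) and when mutant replicate 1 (0.0346) or control replicate 3 (0.0480) was left out, and the adjusted p of its other alternatives ran up to 0.266.

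Hoxc9, which sets thoracic identity in motor neurons of mice, spread widely, with 9.14, 9.56 and 9.70 in mutants and 9.54, 9.64 and 9.33 in controls. Its difference of -0.04 had a 95% interval of -0.41 to 0.33, so a change of the size seen in Hoxd9 could be missed here. Hoxb4, best known from blood stem cells, had 8.870, 8.901 and 9.004 in mutants, against 9.038, 9.219 and 9.005 in controls. Its groups were parted by a small margin and its difference of -0.16 was not called (limma adjusted p = 0.141). Hoxa5, a lung and respiratory motor neuron gene, had 8.68, 8.80 and 8.76 in mutants and 8.998, 8.966 and 8.725 in controls, with overlapping groups and a difference of -0.15. It was called without control replicate 3, at -0.23 (adjusted p = 0.0480), with an adjusted p of up to 0.506 in its other alternatives.

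The remaining tested genes lay within 0.14 of no difference. Hoxc10, a lumbar gene, was at -0.14 on its brighter probe (95% interval -0.39 to 0.12) and at -0.05 on the other. Hoxc4 was at -0.08 and Hoxa13 at -0.07. Hoxa9, best known from leukaemia, was at 0.05 (95% interval -0.12 to 0.22) and Hoxb2 at 0.03 (-0.16 to 0.22). Groups that do not overlap were seen in 4 of the 15 tested Hox genes (26.7%), namely Hoxb4, Hoxb7, Hoxd8 and Hoxd9, and in 55.2% of all tested genes.

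**Figure D3:**
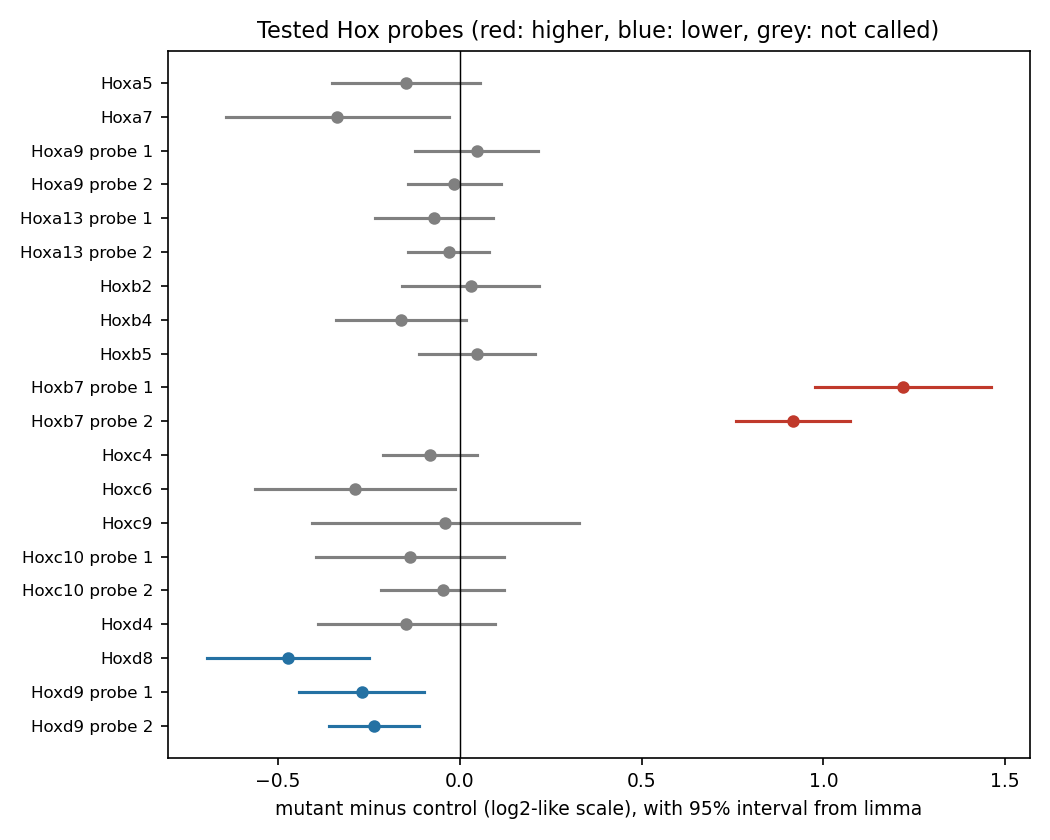
Difference between mutant and control nerves (mutant minus control, log2-like scale) for the 20 tested Hox probes in cluster order, with the 95% interval of each difference before adjustment. Both Hoxb7 probes lie at 0.92 or above, Hoxd8 and both Hoxd9 probes lie below 0 with intervals that do not reach it, and the grey probes were not called.

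The 37 dim probes read 23 genes with no tested probe and further probes of tested genes. In a fit over all 45281 probes, which called 14.1% of them, the 5 called Hox probes were again called, and 0 of the 37 dim ones were. Of these 37, 1 had an unadjusted p under 0.05, and 36 differed by less than 0.1 in either direction. Their differences ran from -0.16 for Hoxd10 to 0.06 for a Hoxa10 probe, and values so close to the dim end leave little room for a fall to show. Groups that did not overlap were seen in 2 of the 37 dim probes, those of Hoxa4 and Hoxd10. The share over all dim probes of the array was not counted, so this is not read as a result.

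Hox genes described as targets of the cluster microRNAs were listed apart. Of the 4 genes listed for miR-196, Hoxd8 fell, Hoxa7 was not called, and Hoxb8 and Hoxc8 were dim, with differences of -0.02 and 0.01. Among the genes listed for miR-10, the 4 Hoxa3 probes and Hoxd10 were dim. No gene of the miR-10 list was tested. Hoxb7 was not on them, although HOXB7 has been described as a miR-196a target in human cells.

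Of 7 tested TALE cofactor genes, which bind DNA beside Hox proteins, 5 rose (Pbx2, Pbx3, Meis1, Meis2 and Pknox2), 0 fell and 2 were not called, with a median of 0.43. Over all tested genes 22.0% were called higher and 17.6% lower, with a median of 0.01, and the counts of the lists that follow stand beside the same shares. Meis2 had 11.03, 10.97 and 11.15 in mutants, against 9.53, 9.50 and 9.26 in controls. It rose by 1.62 (SE 0.089, limma adjusted p = 3.97e-05), and a further probe rose by 1.27. The remaining tested probe differed by 0.35 and passed the brightness limit through the mutant arrays, since its control values lay between 8.23 and 8.24. Pbx2 stood at 9.67 ± 0.075 in mutants and 8.98 ± 0.039 in controls (SD, n = 3 each) and rose by 0.69, Pknox2 rose by 0.56 and Meis1 by 0.43. Pbx3 rose by 0.24 and passed the brightness limit through the mutant arrays, since its control mean was 8.32. Meis3 and Pknox1 were at 0.00 and -0.06.

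**Figure D4:**
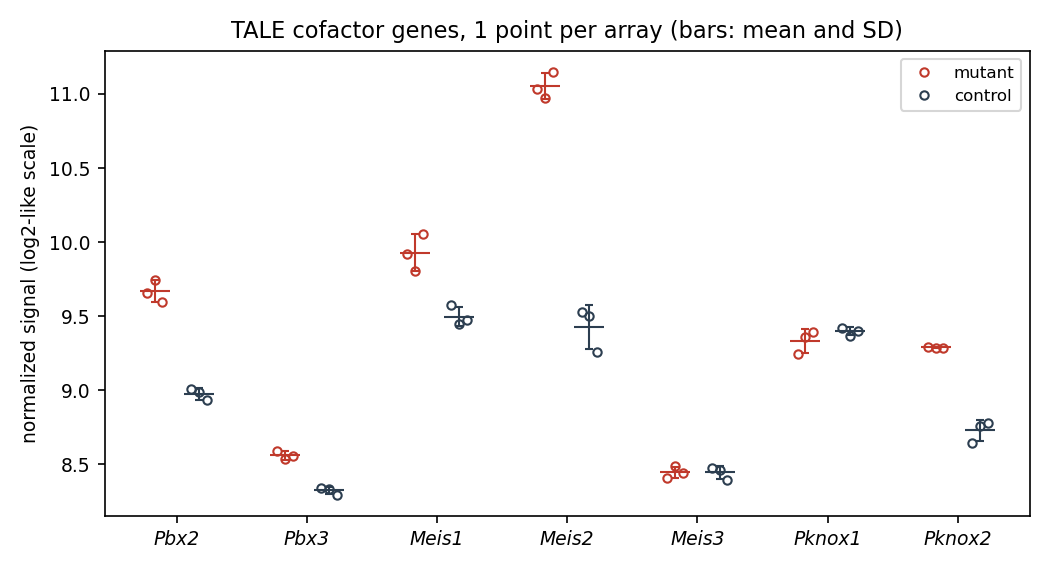
Normalized signal (log2-like scale) of the 7 tested TALE cofactor genes, 1 point per array, mutant arrays left of control arrays, with bars for mean and SD (n = 3). Meis2 has the widest gap, with mutant values of 10.97 and above and control values of 9.53 and below, while Meis3 and Pknox1 overlap.

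Of the Polycomb repressive complex 2 genes, 6 of 9 tested rose, where 22.0% of all tested genes did, and 0 fell, with a median of 0.32. Suz12, Rbbp7, Ezh2 and Eed, which belong to the core of this histone methyltransferase, rose by 0.72, 0.65, 0.64 and 0.32. Rbbp4 at 0.18, Ezh1 at -0.08 and, on its brightest probe, Mtf2 at 0.33 were not called. Other probes of these genes did not always match. The 2 dimmer tested Mtf2 probes were called higher, at 0.51 and 0.46. Aebp2 was counted among the rises, but its 2 dimmer tested probes were not called, at 0.03 and 0.18. The dimmest tested Rbbp7 probe was not called either, at 0.23. The count of rises was 4 without control replicate 1, where the Ezh2 call was lost (adjusted p = 0.0518). Of 16 genes of complex 1, 2 rose, Pcgf3 by 0.48 and Pcgf5 by 0.37, and 3 fell, among them Cbx6 with -0.33 and Ring1 with -0.24, and 11 were not called. Lower calls numbered 1 with the replicate block, where Ring1 and Phc2 lost theirs (adjusted p up to 0.109 over their alternatives), 1 without control replicate 2 or 3, and 5 without mutant replicate 1. Of 11 trithorax and demethylase genes, which oppose Polycomb, 5 were called, a share near the 39.6% over all tested genes, and all 5 rose, led by the demethylase gene Kdm6b at 0.59, with Rbbp5 at 0.39, Ash2l at 0.31 and Kmt2b at 0.31. That count was 3 without control replicate 1 or 3, and Rbbp5 was among the calls lost in both. A dimmer tested probe each of Ring1, Rbbp5, Ash2l and Kdm6b was not called, at -0.06, 0.04, 0.08 and 0.10.

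Of 11 tested genes that regulate Hox clusters in embryos, 2 rose and 2 fell, shares near those over all tested genes, and 3 rose and 4 fell without mutant replicate 1. Egr2, which switches on Hoxa2 and Hoxb2 in the hindbrain and myelin genes in Schwann cells, fell by 2.45, while Hoxb2 differed by 0.03. The retinoic acid receptor gene Rarb rose by 0.93, the activin receptor gene Acvr2b by 0.74, and Rxrb fell by 0.31. A dimmer Rxrb probe was at -0.08 and not called. Cdx2 and Cdx4 were dim. Of 7 tested positional factors of limb and mesenchyme, 0 were called. Twist1 and Shox2 were at -0.06 and -0.14, and Tbx4 and Pitx1, which mark hindlimb mesenchyme, were dim.

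Markers of the cell types a nerve sample can hold moved beside these genes. The means of 7 tested skeletal muscle markers were 11.47, 11.29 and 9.60 in the mutants, against 11.74, 12.96 and 11.64 in the controls. Muscle RNA was thus present on every array. The list mean was lower in mutants without overlap, by a small margin for mutant replicate 1 and most in mutant replicate 3. Taken singly, Acta1, Myh4 and Tnnt3 overlapped between the groups. Of these 7, 1 fell (Myh1) and 6 were not called, with a median of -1.32. With the replicate block 4 fell, and without mutant replicate 1 the count was 3. Of 11 fibroblast and perineurial markers, 3 rose, Lum by 0.99, Col1a1 by 0.61 and Osr2 by 0.30, and 1, Clec3b, fell by 0.61. The other tested Osr2 probe was at 0.11 and not called. No fibroblast marker was called lower with the replicate block, nor without mutant replicate 2 or control replicate 1 or 2, and 3 were without mutant replicate 1. Of 5 tested Schwann lineage markers, Gfra3 rose by 2.76 and Cdh19 by 0.98, and S100b, a calcium-binding protein gene of Schwann cells, fell by 1.19. Sox10, which defines the lineage, and Erbb3 were both at 0.04 and not called, and the list's median was 0.04, the value of Erbb3. The tested Erbb3 probe passed the brightness limit through the mutant arrays, with a mean of 8.37 there and 8.32 in controls. It can therefore say little about that gene. The part of muscle or fibroblast RNA in the Hox differences was not tested. Hoxd8 and the mean of the muscle list were both lower in all mutant arrays, and Hoxb7 was higher in them. The 3 tested neuronal markers, 5 macrophage markers, 7 endothelial and mural markers and 3 adipocyte markers gave 2 calls in all, Pdgfrb higher by 0.36 and Cd163 lower, at -0.76. With the replicate block there were more, namely 2 adipocyte markers lower, 1 macrophage marker higher and 1 lower, and 2 endothelial and mural markers higher. Array weights, which called 9736 of the 18420 tested probes, called all 3 adipocyte markers lower. Leaving out mutant replicate 1 or control replicate 3 called 1 of them. The brightest tested adipocyte markers, Adipoq and Lep, were at -0.50 and -0.34, and the brightest neuronal ones, Stmn2 and Prph, at 0.03 and -0.01.

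**Figure D5:**
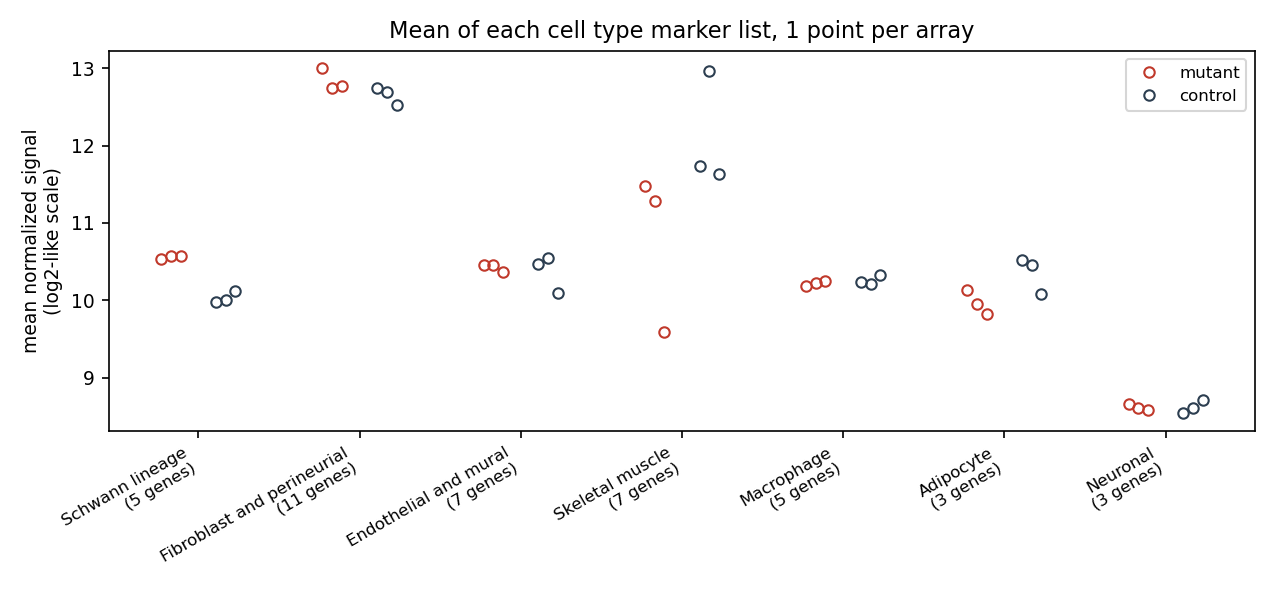
Mean normalized signal (log2-like scale) of the tested genes of each cell type marker list, 1 point per array, mutant arrays left of control arrays. The muscle list spans the widest range, from 9.60 in a mutant array to 12.96 in a control array, and the Schwann lineage mean lies higher in mutants through Gfra3 and Cdh19, while S100b was lower and the list's median difference was 0.04.

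Over the tested probes, arrays correlated at 0.992 to 0.995 among controls, at 0.973 to 0.993 among mutants and at 0.912 to 0.942 between the groups. Mutant replicate 1 stood apart from the other mutants, and without it Hoxb7, Hoxd8 and Hoxd9 differed by 1.32, -0.57 and -0.27, all called.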

How the data were processed

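Total RNA of 6 sciatic nerve samples was hybridised to bead arrays, 1 array per sample. The authors deposited normalized signals on a log2 or log2-like scale. RMA normalization and limma are named in the design text, per the labels, and lumi 1.8.3 in the submitters' processing notes. The design text speaks of cultured cells, while the samples are sciatic nerve, and the mismatch is not explained. Background correction, and whether the scale is plain log2 or lumi's variance-stabilising transform, are not given in the sources used here; on the second, differences of dim probes understate a log2 fold change. The 6 columns share 1 distribution, and no further normalization was applied.

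The design text keeps 18420 of 45281 probes by present calls, which were not used here. Instead an equal number of probes, the brightest by their 6-array mean, was tested, and probes were named by the platform annotation. The group comparison used R 4.3.3 with lmFit, eBayes and their 2-sided test from limma 3.58.1, adjusted by Benjamini-Hochberg over all tested probes. Intervals use limma's standard error and total degrees of freedom. The brightest tested probe stands for a gene. Replicate numbers come from the sample titles. Deviations from the group means correlated at 0.165, 0.155 and 0.224 for same-numbered arrays, and from -0.157 to 0.028 for differently numbered ones. The numbers may thus mark pairs. Deviations from a group mean cancel within the group, so part of this contrast is built in and it cannot settle the pairing. The main fit and its p-values did not use the replicate numbers, and a block on them is an alternative. Other alternatives were no filter, a stricter filter, an intensity trend, cyclic loess, array weights, averaged probes and leaving out each array. The number of arrays limits the precision.

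All Hox probes are accounted for. By rule, array values are given for the brightest tested gene of each cluster and the called Hox genes, and each other list is described by up to 4 called genes with the largest differences, or its 2 brightest where none was called. Other genes shown were chosen after their values were seen. The members, lists and this rule were chosen with earlier results of these data known.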

Additional observations from a re-analysis of the deposited data

How the results depend on the processing

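The Hoxb7 and Hoxd8 calls held in all 13 alternatives run on them. The brightest Hoxd9 probe held its call in 7 of 11 fits to single probes and lost it where 1 array was left out, as given above. Hox genes called numbered 3, against 6 with array weights and from 2 to 5 with 1 array left out. The 5 were reached without control replicate 3, where Hoxa5 and Hoxc6 were added, and the 2 without mutant replicate 2 and without control replicate 1 or 2, where Hoxd9 was lost. Hox probes called numbered 5, against 8 with array weights, 3 with the stricter filter of 10000 probes, and from 3 to 7 with 1 array left out. Both Hoxd9 probes were too dim for the stricter filter and so were not tested there. With array weights, mutant replicate 1 had a weight of 0.208 and mutant replicate 2 one of 4.64. Of all 18420 tested probes 6596 were called, against 9736 with array weights and from 4598 to 7502 with 1 array left out. The larger Hox counts with array weights thus stand beside more calls over all probes. Under the stricter filter, where fewer were tested, 4387 were called. With the replicate block 4 Hox genes and 6 Hox probes were called, Hoxc6 being added (adjusted p = 0.0172), and the block changed no other Hox call.

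Signs turned only in genes that were never called. With array weights Hoxa13 was at 0.0138, Hoxa9 at -0.0237 and Hoxc9 at 0.0318. With 1 array left out, Hoxa9 ran from -0.00835 to 0.0934, Hoxb2 from -0.0180 to 0.10 and Hoxc9 from -0.15 to 0.12. The cause of these shifts was not tested. Of 185 values of single Hox genes under the alternatives, 165 kept their sign and their side of the threshold, 8 became called, 4 lost their call and 8 changed sign. Both filters, the intensity trend and the replicate block leave the difference itself unchanged, so no sign could turn there. The same holds for averaged probes where a gene has 1 tested probe. Probes near the dim end limit what can be seen in most Hox genes.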

Other observations

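The genes flanking the clusters were looked at after the Hox values had been seen, taking the nearest 2 tested protein-coding genes on each side in the RefSeq gene order. Beside the D cluster, Atp5g3, Atf2, Hnrnpa3 and Nfe2l2 were not called, with differences of -0.37, -0.03, 0.17 and 0.02. Beside the B cluster, Snx11 fell by 0.47 (limma adjusted p = 0.00122) and Nfe2l1 rose by 0.25 (0.0121), while Ube2z and Snf8 were not called, at 0.21 and -0.18. Beside the A cluster, Skap2 fell by 0.32, Snx10 rose by 0.36, and Hibadh and Tax1bp1 were not called. Beside the C cluster, Calcoco1, Atp5g2, Smug1 and Cbx5 were not called. The long non-coding RNA gene Hoxd3os1, inside the D cluster, was read by a pair of dim probes, with values between 8.11 and 8.26 in mutants and between 8.11 and 8.22 in controls.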
